A study of Mus musculus with 8 samples.

Results

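The genes described here encode the DNA replication and mitosis machinery of mouse embryonic fibroblasts (MEFs), which are cultured connective tissue cells. The set was a fixed list of 49 symbols, 23 of replication, 3 interphase cyclins and 23 of mitosis, and every array probe whose gene name matched a symbol was taken, without use of its measured values. Of the 49 genes, 44 had a probe among the 17870 symbols of the array, with 70 probes, and Gins1, Gins2, Aurkb, Kif20a and Mki67 were not analysed here. The list and the tests were drawn up with earlier results of these data known. Total RNA was measured on 8 single-colour Illumina arrays, 2 for each of 4 groups. These were Ticam1 knockout MEFs with c-di-GMP, wild-type MEFs with c-di-GMP, Ticam1 knockout MEFs with DMSO and wild-type MEFs with DMSO. Ticam1, written TICAM in the labels, encodes TRIF, the adaptor of Toll-like receptors 3 and 4. The bacterial dinucleotide c-di-GMP, which mammalian cells sense through STING, was transfected at 8 µg/ml with lipofectamine for 30 min, control cells had an equal amount of DMSO, and RNA was extracted 4 h later from all groups. All cells grew in DMEM with 10% serum. The labels do not give the embryos, passage or clones behind either genotype, nor whether replicates were separate cultures. A p-value here rests on the spread of arrays that may be technical repeats, and genotype and cell preparation cannot be told apart.

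The mean signal was 252.59 to 648.88 on 7 arrays, which detected 11254 to 11657 of 25697 probes (detection p under 0.05). The second knockout DMSO array detected 6468 probes, and its signal at the 99th percentile was 7.55 times that at the 5th, against 38.3 to 83.0 times on the others. It correlated with the first knockout DMSO array at 0.833 across probes, while the other pairs of replicates correlated at 0.984 to 0.993. The set was affected in the same way. On the second knockout DMSO array 48 of the 70 probes of the set were detected, against 59 to 60 on the other knockout arrays and 52 to 55 on the wild-type arrays. The 2 knockout DMSO arrays differed by over 1 on the log2 scale for 18 of 40 genes, from -4.07 for Cdc20 to 1.94 for Lig1 (second minus first), whereas the replicates of the other groups did so for 0, 1 and 0 genes. Results are therefore given with all 8 arrays and with this array left out. The targeted gene checks no label, because its probes read near background in both genotypes and their place relative to the deletion is not given. The Ticam1 probe with the higher signal gave 124.6 and 157.5 in knockout and 90.7 and 157.2 in wild-type cells given c-di-GMP, and 164.5 and 167.9 in knockout and 156.1 and 109.3 in wild-type cells given DMSO (signal before normalization), and was detected on 2 knockout arrays and 1 wild-type array. The other probe was detected on 0 arrays.

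Before S phase, Cdc6 and Cdt1 load the ring-shaped Mcm2 to Mcm7 helicase onto replication origins, and Cdc45 and the Gins complex switch it on. Dividing cells transcribe the genes of replication ahead of S phase, largely through E2F factors bound at their promoters. The genes of mitosis follow in G2, when the MuvB complex together with B-Myb and Foxm1 acts through a cell cycle homology region (CHR). CCAAT boxes often stand in the same promoters. Both sets of genes are repressed in quiescent or senescent cells. Fibroblasts in culture are therefore commonly compared by these genes when their division rates are in question, although an mRNA level measures no division.

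The promoters of the set carry this division in their sequence. Windows of 300 bases, 250 before and 50 after the start of transcription, were taken from RefSeq (GRCm38.p6), which gave 44 windows for 39 of the 44 genes. Windows of Mcm4, Ccne2, Ccna2, Foxm1 and Tpx2 were not used here. Both strands were searched for an E2F site, TTCCCGC or TTGGCGC, for the CHR, TTTGAA, and for the CCAAT box, CCAAT. An E2F match stood in 13 of 24 replication windows (54.2%), in 1 of 19 mitosis windows (5.3%, Ccnb1) and in 6.8% of all 32851 windows. The CHR stood in 14 of 19 mitosis windows (73.7%), in 3 of 24 replication windows (12.5%) and in 17.9% of all. CCAAT was found in 17 of 19 mitosis windows (89.5%), in 14 of 24 replication windows (58.3%) and in 37.4% of all. All 14 mitosis windows with a CHR also held CCAAT, while 9 of the 24 replication windows held both an E2F match and CCAAT. Among the matches in the set, 5 pairs overlapped, 3 of them an E2F match with a CCAAT match. A match is only these letters in this window and shows no binding.

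A pair of windows from each side shows 1 layout of each, which other windows of the set do not all share. They were chosen after their values were seen, as genes higher in the knockout cells in both treatments, and capitals mark the matches. In Mcm3 (chr1:20820263-20820562, minus strand) and Mcm5 (chr8:75109259-75109558, plus strand), both subunits of the helicase ring, E2F matches stand with several CCAAT boxes and no CHR.
Mcm3: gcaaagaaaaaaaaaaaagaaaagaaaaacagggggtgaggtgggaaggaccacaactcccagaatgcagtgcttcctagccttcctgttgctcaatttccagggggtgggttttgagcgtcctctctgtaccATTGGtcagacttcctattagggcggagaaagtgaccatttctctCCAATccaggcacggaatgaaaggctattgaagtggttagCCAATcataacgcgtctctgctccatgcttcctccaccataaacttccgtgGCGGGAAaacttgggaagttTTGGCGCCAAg
Mcm5: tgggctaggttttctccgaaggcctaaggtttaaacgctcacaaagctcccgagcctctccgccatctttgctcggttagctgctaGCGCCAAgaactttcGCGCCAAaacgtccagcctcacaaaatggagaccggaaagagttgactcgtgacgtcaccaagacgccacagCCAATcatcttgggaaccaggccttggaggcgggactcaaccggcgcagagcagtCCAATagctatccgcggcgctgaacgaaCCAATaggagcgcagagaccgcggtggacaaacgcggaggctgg
In Kif23 (chr9:61946750-61947049, minus strand), a kinesin of the central spindle, and Plk1 (chr7:122159185-122159484, plus strand), a kinase that drives entry into mitosis, 1 CCAAT box stands upstream of 1 CHR, with no E2F match.
Kif23: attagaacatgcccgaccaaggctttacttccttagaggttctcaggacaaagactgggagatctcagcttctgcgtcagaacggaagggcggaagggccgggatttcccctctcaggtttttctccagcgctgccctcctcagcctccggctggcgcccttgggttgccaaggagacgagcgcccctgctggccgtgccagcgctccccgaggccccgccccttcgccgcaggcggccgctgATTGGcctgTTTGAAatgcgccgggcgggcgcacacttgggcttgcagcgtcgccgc
Plk1: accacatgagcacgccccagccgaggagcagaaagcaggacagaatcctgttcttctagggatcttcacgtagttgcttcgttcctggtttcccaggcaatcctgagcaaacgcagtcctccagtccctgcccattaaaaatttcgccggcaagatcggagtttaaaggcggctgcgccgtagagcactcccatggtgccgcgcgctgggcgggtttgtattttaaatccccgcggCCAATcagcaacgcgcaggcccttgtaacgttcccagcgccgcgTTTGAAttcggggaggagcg

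**Figure D1:**
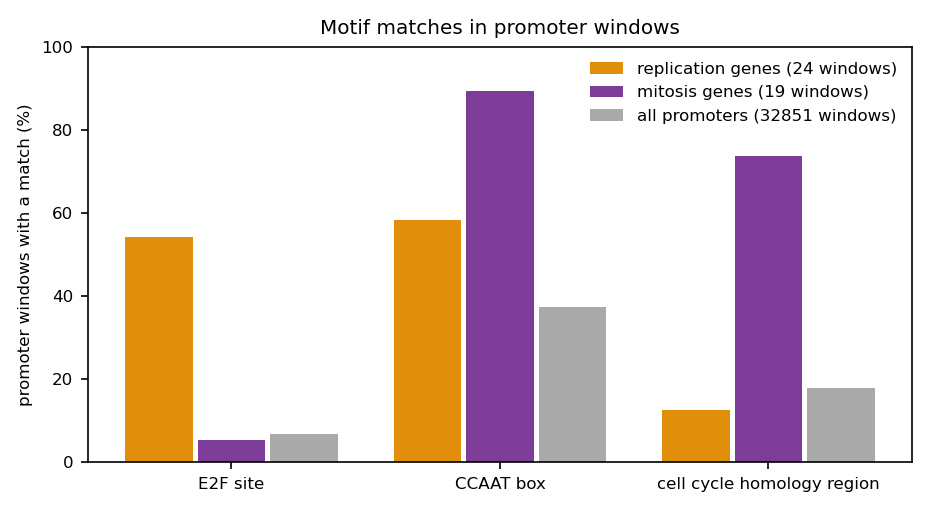
Share of promoter windows with at least 1 match (percent, bars from 0) for each motif, for the replication genes (24 windows), the mitosis genes (19 windows) and all 32851 windows. E2F matches were in 54.2% of replication windows and 5.3% of mitosis windows, CHR matches in 12.5% and 73.7%.

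In both treatments, 20 genes of the set were higher in knockout cells than in wild-type cells, and no gene of it was called lower with 8 arrays of equal weight. With c-di-GMP, 21 of the 40 genes tested were higher in knockout cells and 0 lower (limma, Benjamini-Hochberg adjusted p under 0.05 over 9541 genes, of which 5.85% were higher and 8.14% lower). With DMSO, 23 of 40 were higher and 0 lower, against 5.24% of all genes higher and 7.48% lower. The median difference (knockout minus wild type, log2) over the 40 genes was 2.00 with c-di-GMP and 1.70 with DMSO, beside 0.10 and -0.11 over all genes tested. The difference was positive for 39 of 40 genes with c-di-GMP, all but Ccne1, and for 40 of 40 with DMSO, where median scaling with the weak array gave 27 of 40.

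Most genes that missed the threshold did so with both knockout DMSO arrays in the fit. The c-di-GMP comparison holds neither of them, but all groups share the estimate of spread. The median SE over the 40 genes with c-di-GMP was 0.38 with 8 arrays and 0.19 without the weak array. Without it, 39 genes were higher in knockout cells given c-di-GMP and 1, Ccne1, was lower, where 23.5% of all genes were higher and 20.4% lower. With DMSO 36 of 40 were higher and 0 lower (13.7% and 13.9% of all genes). Knockout DMSO cells are then 1 array, whose spread is taken from the other groups, and this holds for each DMSO value given without the weak array. All 21 and 23 genes called with 8 arrays were called again. Every knockout array stood above every wild-type array for 28 of 40 genes (16.8% of all genes tested), and for 39 of 40 once the weak array was left out (28.7% of all). The exceptions with 8 arrays were Bub1b, Cdc20, Cenpa, Fen1, Kif11, Mad2l1, Pcna, Prc1, Rfc3, Rrm2 and Tyms, each through the second knockout DMSO array alone, and Ccne1. Ube2c and Ttk count among the 28 although they were not detected on the weak array. They read 6.00 and 5.44 there, against at most 5.91 and 5.37 in wild-type cells. The filter asked for a detection p under 0.05 on at least 2 arrays, and Ttk and Ccna2 passed it without being detected on at least 2 wild-type arrays. Over the 38 genes detected on at least 2 wild-type arrays, 20 were higher with c-di-GMP and 22 under DMSO, and none was lower, against 5.56% and 5.01% higher and 9.09% and 8.36% lower of the 8544 genes detected so.

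The counts moved with single arrays, and each such fit leaves 1 array in a group, which takes its spread from the others. With c-di-GMP the 21 became 5 and 8 without the first and the second knockout c-di-GMP array, 7 and 12 without the first and the second wild-type array given c-di-GMP, 13 without either wild-type DMSO array, while the share of all genes called higher was 1.02% and 1.06%, 1.24% and 1.82%, and 2.79% and 2.59% in these fits. The count was 39 with 1 lower without the first knockout DMSO array (23.9% and 20.8% of all genes). With DMSO the 23 became 7 and 6 without the first and the second wild-type DMSO array, 17 without either knockout c-di-GMP array and 19 without either wild-type array given c-di-GMP, beside 0.859% and 0.755%, 1.96% and 1.97%, and 2.84% and 2.96% of all genes. When the weak array alone stood for knockout DMSO cells, 26 genes were called higher and 7 lower, where 27% of all genes were higher and 37.3% lower. Scaling by the median without quantile normalization gave 0 calls in either treatment with the weak array. Of all genes, 0.241% were then called higher with c-di-GMP and 0.0524% with DMSO. With this scaling and without the weak array, 39 of the 40 differences were positive with c-di-GMP and 40 with DMSO.

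**Figure D2:**
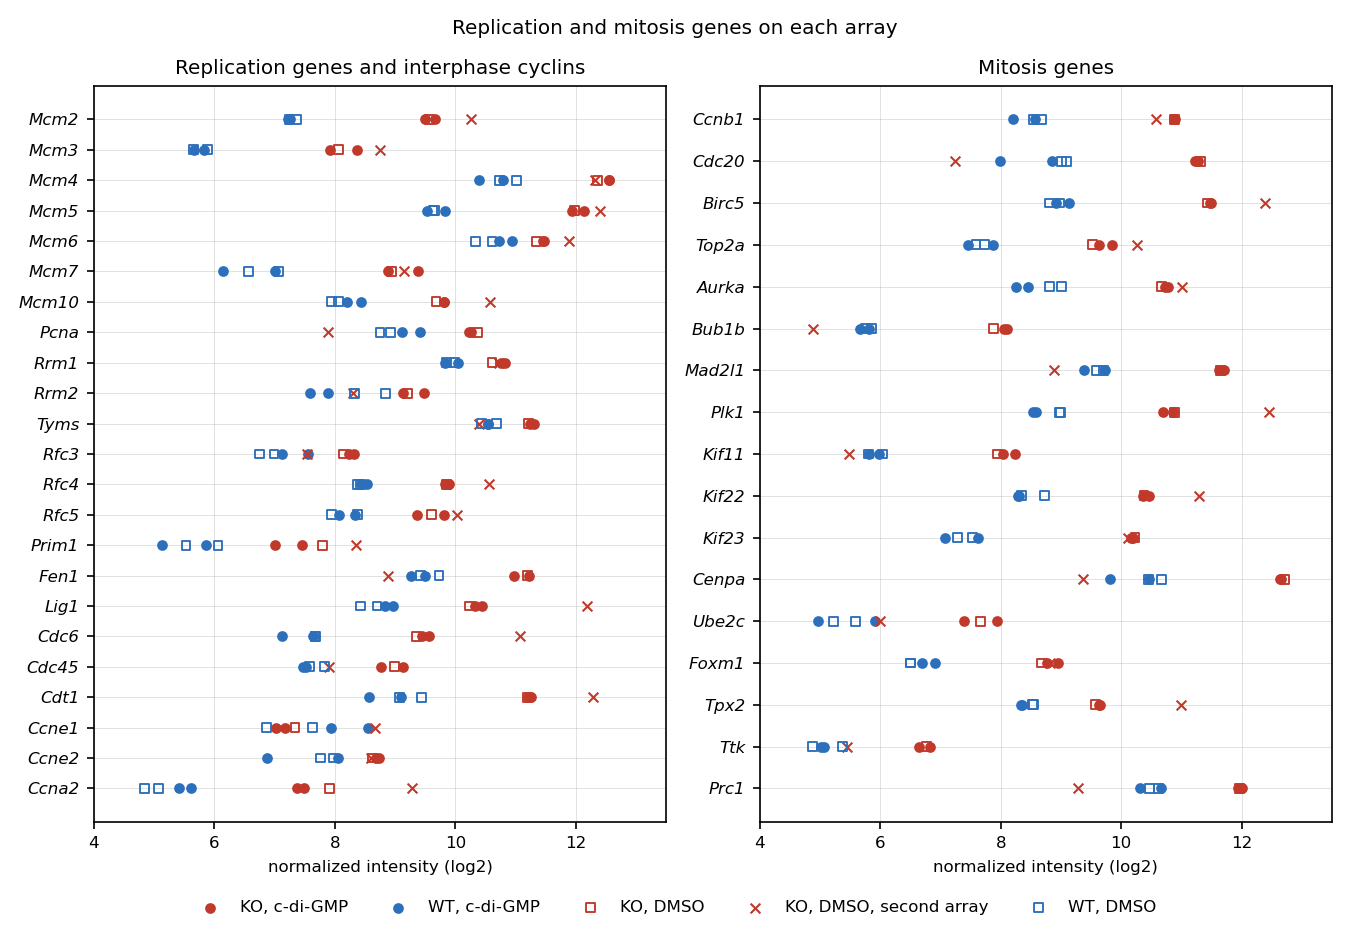
Normalized intensity (log2, x axis) of the 40 genes tested on each of the 8 arrays, knockout in red and wild type in blue, filled circles for c-di-GMP and open squares for DMSO, with crosses for the second knockout DMSO array. The other knockout arrays stand to the right of the wild-type arrays for 39 of 40 genes, all but Ccne1.

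**Figure D3:**
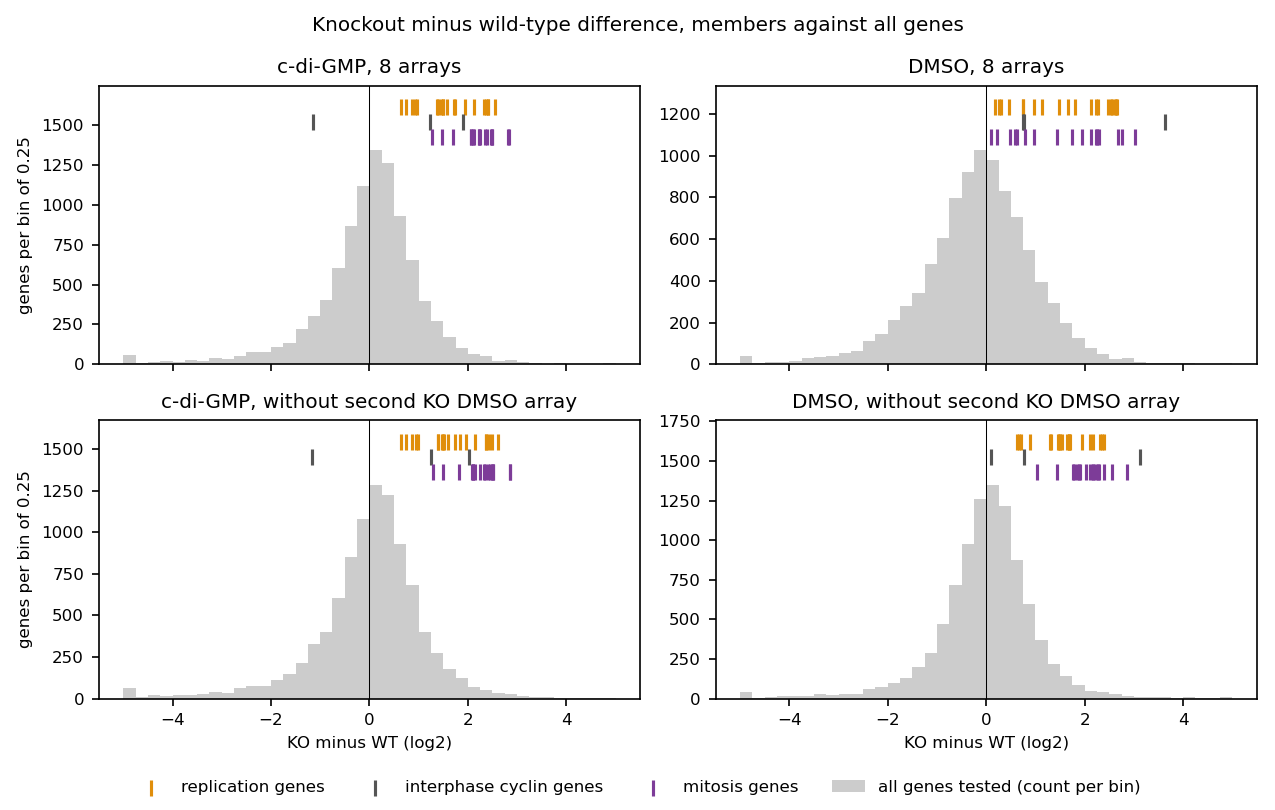
Knockout minus wild-type difference (log2, x axis) of the replication genes, interphase cyclins and mitosis genes as ticks above the histogram of all 9541 genes tested (genes per bin, y axis, values beyond the range in the end bins), by treatment and with or without the second knockout DMSO array. The medians of all genes lie between -0.11 and 0.11, and only Ccne1 of the 40 genes lies below 0, with c-di-GMP.

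Of the helicase ring, 5 of 6 genes were higher in knockout cells given c-di-GMP and 6 of 6 under DMSO. The values that follow are normalized log2 intensities, the second knockout DMSO value comes from the weak array, and a difference is knockout minus wild type ± SE. Mcm2 read 9.66 and 9.49 in knockout and 7.23 and 7.26 in wild-type cells given c-di-GMP, and 9.57 and 10.26 in knockout and 7.24 and 7.36 in wild-type cells given DMSO. Its difference, 2.33 ± 0.30 under c-di-GMP and 2.62 ± 0.30 under DMSO (adjusted p = 0.00363 and 0.00282), is about 5.02-fold with c-di-GMP, and no knockout array overlaps a wild-type one. With c-di-GMP, Mcm5 stood at 11.93 and 12.13 in knockout and 9.53 and 9.83 in wild-type cells, and with DMSO at 11.98 and 12.40 in knockout and 9.66 and 9.63 in wild-type cells. It differed by 2.36 ± 0.27 under c-di-GMP and 2.55 ± 0.27 under DMSO (adjusted p = 0.00233 and 0.00222). Mcm3 read 8.36 and 7.92 in knockout and 5.67 and 5.82 in wild-type cells given c-di-GMP, and 8.06 and 8.75 in knockout and 5.89 and 5.65 in wild-type cells given DMSO. Here the wild-type arrays lie near background and the differences were 2.40 ± 0.33 under c-di-GMP and 2.63 ± 0.33 under DMSO (adjusted p = 0.00463 and 0.00395). The Mcm7 probe gave 9.38 and 8.89 in knockout and 6.15 and 7.01 in wild-type cells given c-di-GMP, and 8.94 and 9.15 in knockout and 7.06 and 6.57 in wild-type cells given DMSO. The largest difference of the ring with c-di-GMP was that of Mcm7, 2.56 ± 0.38 under c-di-GMP and 2.23 ± 0.38 under DMSO (adjusted p = 0.00665 and 0.0131), the lowest value being the first wild-type array given c-di-GMP.

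Mcm4 read 12.55 and 12.55 in knockout and 10.40 and 10.80 in wild-type cells given c-di-GMP, and 12.36 and 12.32 in knockout and 11.02 and 10.73 in wild-type cells given DMSO. It differed by 1.95 ± 0.27 under c-di-GMP and 1.47 ± 0.27 under DMSO (adjusted p = 0.00454 and 0.0162). The smallest difference of the ring was in Mcm6. For Mcm6 the values were 11.46 and 11.47 in knockout and 10.94 and 10.72 in wild-type cells given c-di-GMP, and 11.35 and 11.89 in knockout and 10.34 and 10.61 in wild-type cells given DMSO. The groups did not overlap, but the difference of 0.64 ± 0.29 with c-di-GMP missed the threshold (adjusted p = 0.209) and passed it without the weak array (adjusted p = 0.0259), and with DMSO it was 1.14 ± 0.29 (adjusted p = 0.0469). Scaled by the median with all 8 arrays, Mcm6 turned to -0.20 with DMSO (adjusted p = 0.925). The median over the ring was 2.34 with c-di-GMP and 2.39 with DMSO.

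Cdt1, Cdc6 and Mcm10, which load or activate the helicase, were higher in knockout cells in both treatments. Cdt1 read 11.21 and 11.26 in knockout and 8.56 and 9.10 in wild-type cells given c-di-GMP, and 11.20 and 12.28 in knockout and 9.07 and 9.44 in wild-type cells given DMSO. This loader differed by 2.40 ± 0.41 under c-di-GMP and 2.48 ± 0.41 under DMSO (adjusted p = 0.0111 and 0.0119), about 5.29-fold with c-di-GMP. With c-di-GMP, Cdc6 stood at 9.45 and 9.56 in knockout and 7.13 and 7.64 in wild-type cells, and with DMSO at 9.35 and 11.07 in knockout and 7.68 and 7.67 in wild-type cells. Cdc6, the ATPase that recruits Cdt1 and the ring, differed by 2.12 ± 0.54 under c-di-GMP and 2.53 ± 0.54 under DMSO (adjusted p = 0.0454 and 0.0284), and its weak-array value lay far above the other knockout values, so that the difference was 1.69 ± 0.26 under DMSO (adjusted p = 0.00415) once it was left out. Mcm10 read 9.82 and 9.82 in knockout and 8.20 and 8.44 in wild-type cells given c-di-GMP, and 9.68 and 10.58 in knockout and 8.06 and 7.94 in wild-type cells given DMSO. Mcm10, which binds the active helicase and the primase complex, differed by 1.50 ± 0.34 under c-di-GMP and 2.13 ± 0.34 under DMSO (adjusted p = 0.0313 and 0.0105). Cdc45, a part of the active helicase, ranged from 7.91 to 9.13 in knockout and from 7.47 to 7.83 in wild-type cells and missed the threshold in both treatments (1.45 ± 0.39 under c-di-GMP and 0.74 ± 0.39 under DMSO (adjusted p = 0.0544 and 0.244)). Cdc45 differed by 1.48 ± 0.20 and 1.30 ± 0.24 (adjusted p = 0.0012 and 0.00866) once the weak array was left out.

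At the fork, Prim1, Rfc4 and Rfc5 passed the test in both treatments, while Rfc3 and Pcna passed it in neither. Prim1 read 7.01 and 7.45 in knockout and 5.13 and 5.86 in wild-type cells given c-di-GMP, and 7.80 and 8.35 in knockout and 6.06 and 5.53 in wild-type cells given DMSO. Prim1, the catalytic primase subunit, differed by 1.74 ± 0.38 under c-di-GMP and 2.28 ± 0.38 under DMSO (adjusted p = 0.0287 and 0.0126). Its wild-type values lie near background, and it was detected on 3 wild-type arrays. With c-di-GMP, Rfc4 stood at 9.90 and 9.83 in knockout and 8.44 and 8.53 in wild-type cells, and with DMSO at 9.85 and 10.56 in knockout and 8.38 and 8.43 in wild-type cells. Rfc5 read 9.36 and 9.82 in knockout and 8.07 and 8.34 in wild-type cells given c-di-GMP, and 9.61 and 10.03 in knockout and 8.37 and 7.94 in wild-type cells given DMSO. These are subunits of the complex that loads the clamp, and they differed by 1.38 ± 0.30 and 1.39 ± 0.32 with c-di-GMP and by 1.80 ± 0.30 and 1.67 ± 0.32 with DMSO (adjusted p between 0.012 and 0.0313). For Rfc3 the values were 8.23 and 8.32 in knockout and 7.13 and 7.56 in wild-type cells given c-di-GMP, and 8.15 and 7.53 in knockout and 6.75 and 6.99 in wild-type cells given DMSO. Rfc3 of the same complex differed by 0.93 ± 0.31 under c-di-GMP and 0.97 ± 0.31 under DMSO (adjusted p = 0.108 and 0.0925), and its highest wild-type array stood at the level of the weak array. The Pcna probe gave 10.26 and 10.23 in knockout and 9.12 and 9.42 in wild-type cells given c-di-GMP, and 10.37 and 7.89 in knockout and 8.75 and 8.92 in wild-type cells given DMSO. The sliding clamp gene Pcna was higher on 3 knockout arrays than on any wild-type array, but the weak array stood below all wild-type arrays, and the differences were 0.97 ± 0.72 under c-di-GMP and 0.29 ± 0.72 under DMSO (adjusted p = 0.456 and 0.801). Once that array was dropped, Pcna differed by 0.98 ± 0.18 and 1.54 ± 0.22 (adjusted p = 0.00464 and 0.00311).

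On the weak array, the lagging-strand genes Lig1 and Fen1 stood at opposite ends. Lig1 read 10.45 and 10.32 in knockout and 8.83 and 8.97 in wild-type cells given c-di-GMP, and 10.24 and 12.18 in knockout and 8.43 and 8.70 in wild-type cells given DMSO. The ligase gene Lig1 differed by 1.49 ± 0.58 under c-di-GMP and 2.65 ± 0.58 under DMSO (adjusted p = 0.153 and 0.0312), and by 1.50 ± 0.18 and 1.69 ± 0.22 (adjusted p = 0.000725 and 0.00201) without the weak array, whose value was the highest of all. Fen1, the flap nuclease, spanned 10.97 to 11.22 on 3 knockout arrays and 9.26 to 9.73 on the wild-type arrays, with 8.89 on the weak array, and differed by 1.72 ± 0.68 under c-di-GMP and 0.47 ± 0.68 under DMSO (adjusted p = 0.157 and 0.657). Leaving it out gave differences for Fen1 of 1.73 ± 0.20 and 1.64 ± 0.24 (adjusted p = 0.00063 and 0.00359).

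Of the 3 genes of nucleotide supply, Rrm2 was higher in knockout cells given c-di-GMP, and none passed the test with DMSO, although the other Rrm2 probe was called with DMSO and not with c-di-GMP. Rrm2 read 9.13 and 9.48 in knockout and 7.59 and 7.88 in wild-type cells given c-di-GMP, and 9.21 and 8.30 in knockout and 8.33 and 8.84 in wild-type cells given DMSO. Rrm2, the regulated subunit of ribonucleotide reductase, differed by 1.57 ± 0.38 under c-di-GMP and 0.18 ± 0.38 under DMSO (adjusted p = 0.0398 and 0.774), and by 0.63 ± 0.29 under DMSO (adjusted p = 0.154) without the weak array. Rrm1, its large subunit, lay between 10.61 and 10.83 in knockout and between 9.83 and 10.05 in wild-type cells, with no overlap. It differed by 0.86 ± 0.24 under c-di-GMP and 0.75 ± 0.24 under DMSO (adjusted p = 0.0631 and 0.0903), and by 0.86 ± 0.17 and 0.70 ± 0.21 (adjusted p = 0.00629 and 0.0458) without the weak array. Tyms, which makes thymidylate, lay between 10.40 and 11.31 in knockout and between 10.43 and 10.68 in wild-type cells and differed by 0.74 ± 0.33 under c-di-GMP and 0.25 ± 0.33 under DMSO (adjusted p = 0.204 and 0.621). In Tyms the weak array was the lowest knockout value, and without it the differences were 0.74 ± 0.17 and 0.67 ± 0.21 (adjusted p = 0.0115 and 0.0523).

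The interphase cyclins did not move as one. Ccna2 read 7.37 and 7.48 in knockout and 5.41 and 5.62 in wild-type cells given c-di-GMP, and 7.91 and 9.28 in knockout and 5.07 and 4.84 in wild-type cells given DMSO. Cyclin A2, active in S phase and G2, was higher on every knockout array than on any wild-type array, by 1.91 ± 0.45 with c-di-GMP (adjusted p = 0.0339). With DMSO it was detected on neither wild-type array and was at least 9.04-fold higher in knockout cells, the bound being the lowest detected signal of the array (adjusted p = 0.00368), or at least 6.15-fold without the weak array. Cyclin E1, which drives entry into S phase, did not show this pattern. For Ccne1 the values were 7.03 and 7.18 in knockout and 8.55 and 7.94 in wild-type cells given c-di-GMP, and 7.34 and 8.66 in knockout and 7.63 and 6.86 in wild-type cells given DMSO. With c-di-GMP it was lower in knockout cells by -1.14 ± 0.50 (adjusted p = 0.201 with 8 arrays of equal weight). It was the only gene of the set with a negative difference there, and 1 gene was called lower with array weights over all 8 arrays. Without the weak array the Ccne1 difference was -1.17 ± 0.31. With DMSO the Ccne1 difference was 0.76 ± 0.50 (adjusted p = 0.337) and 0.10 ± 0.38 without that array (adjusted p = 0.872, 95% interval -0.81 to 1.01). Cyclin E2 lay between 8.60 and 8.73 in knockout and between 6.87 and 8.06 in wild-type cells, and its differences were 1.24 ± 0.40 under c-di-GMP and 0.74 ± 0.40 under DMSO (adjusted p = 0.096 and 0.256). Its lowest value was the first wild-type array given c-di-GMP, and without the weak array the Ccne2 differences were 1.26 ± 0.37 and 0.76 ± 0.45 (adjusted p = 0.0304 and 0.258).

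Among the mitosis genes, the kinase genes Aurka and Plk1, Ccnb1 and Foxm1 were higher in knockout cells in both treatments. Ccnb1 read 10.87 and 10.89 in knockout and 8.20 and 8.57 in wild-type cells given c-di-GMP, and 10.88 and 10.58 in knockout and 8.55 and 8.67 in wild-type cells given DMSO. Cyclin B1, the partner of Cdk1 in mitosis, differed by 2.49 ± 0.26 under c-di-GMP and 2.12 ± 0.26 under DMSO (adjusted p = 0.00164 and 0.00396). With c-di-GMP, Aurka stood at 10.73 and 10.77 in knockout and 8.26 and 8.45 in wild-type cells, and with DMSO at 10.67 and 11.01 in knockout and 9.01 and 8.81 in wild-type cells. Aurora kinase A, which matures centrosomes, differed by 2.39 ± 0.26 under c-di-GMP and 1.94 ± 0.26 under DMSO (adjusted p = 0.00172 and 0.00499). Plk1 read 10.69 and 10.86 in knockout and 8.58 and 8.53 in wild-type cells given c-di-GMP, and 10.88 and 12.45 in knockout and 8.99 and 8.98 in wild-type cells given DMSO. Polo-like kinase 1 differed by 2.22 ± 0.49 under c-di-GMP and 2.68 ± 0.49 under DMSO (adjusted p = 0.0274 and 0.0164), its weak-array value being the highest. For Tpx2 the values were 9.64 and 9.63 in knockout and 8.34 and 8.36 in wild-type cells given c-di-GMP, and 9.58 and 10.99 in knockout and 8.55 and 8.53 in wild-type cells given DMSO. Tpx2, which activates Aurora A on spindle microtubules, passed only with DMSO (1.28 ± 0.45 under c-di-GMP and 1.74 ± 0.45 under DMSO (adjusted p = 0.117 and 0.0495)). The weak array gave the highest value, and Tpx2 differed by 1.29 ± 0.15 and 1.04 ± 0.19 (adjusted p = 0.000729 and 0.00757) when it was dropped. Foxm1 encodes a transcription factor that drives the G2 and mitosis genes. The Foxm1 probe used read 8.95 and 8.77 in knockout and 6.91 and 6.69 in wild-type cells given c-di-GMP, and 8.68 and 8.81 in knockout and 6.50 and 6.50 in wild-type cells given DMSO. It differed by 2.06 ± 0.24 under c-di-GMP and 2.24 ± 0.24 under DMSO (adjusted p = 0.00247 and 0.00231).

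The kinesin genes Kif23 and Kif22, Birc5 and Top2a were also higher in both treatments. Kif23 read 10.16 and 10.19 in knockout and 7.08 and 7.62 in wild-type cells given c-di-GMP, and 10.23 and 10.11 in knockout and 7.28 and 7.53 in wild-type cells given DMSO. This kinesin of cytokinesis differed by 2.82 ± 0.28 under c-di-GMP and 2.76 ± 0.28 under DMSO (adjusted p = 0.00127 and 0.00181), about 7.07-fold with c-di-GMP, with the smallest p-value of the set in both treatments. With c-di-GMP, Kif22 stood at 10.36 and 10.47 in knockout and 8.28 and 8.30 in wild-type cells, and with DMSO at 10.38 and 11.30 in knockout and 8.73 and 8.34 in wild-type cells. Kif22, a kinesin that binds chromosome arms, differed by 2.12 ± 0.36 under c-di-GMP and 2.30 ± 0.36 under DMSO (adjusted p = 0.0103 and 0.00913). The Birc5 probe gave 11.49 and 11.48 in knockout and 8.91 and 9.14 in wild-type cells given c-di-GMP, and 11.43 and 12.39 in knockout and 8.97 and 8.81 in wild-type cells given DMSO. Survivin, encoded by Birc5 and part of the chromosomal passenger complex, differed by 2.46 ± 0.36 under c-di-GMP and 3.02 ± 0.36 under DMSO (adjusted p = 0.00595 and 0.00317). For Top2a the values were 9.84 and 9.63 in knockout and 7.46 and 7.88 in wild-type cells given c-di-GMP, and 9.52 and 10.27 in knockout and 7.73 and 7.59 in wild-type cells given DMSO. Topoisomerase IIα, which untangles sister chromatids, differed by 2.06 ± 0.33 under c-di-GMP and 2.23 ± 0.33 under DMSO (adjusted p = 0.0091 and 0.00786). None of these 4 genes had a knockout array at or below a wild-type one.

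The spindle checkpoint genes and several others were high on 3 knockout arrays and low on the weak one. Cdc20, Bub1b, Kif11, Ube2c and Ttk were not detected on the weak array, where the lowest detected value was 7.53. Their values there are not measured low levels. Cdc20 read 11.28 and 11.22 in knockout and 7.98 and 8.85 in wild-type cells given c-di-GMP, and 11.31 and 7.24 in knockout and 9.09 and 9.01 in wild-type cells given DMSO. Cdc20, which activates the anaphase-promoting complex, differed by 2.84 ± 1.15 under c-di-GMP and 0.22 ± 1.15 under DMSO (adjusted p = 0.168 and 0.908) with 8 arrays. The other 7 arrays gave Cdc20 differences of 2.86 ± 0.28 and 2.27 ± 0.35 (adjusted p = 0.000349 and 0.00423). With c-di-GMP, Bub1b stood at 8.05 and 8.11 in knockout and 5.67 and 5.81 in wild-type cells, and with DMSO at 7.88 and 4.89 in knockout and 5.75 and 5.86 in wild-type cells. Kif11 read 8.24 and 8.04 in knockout and 5.98 and 5.82 in wild-type cells given c-di-GMP, and 7.94 and 5.48 in knockout and 6.04 and 5.81 in wild-type cells given DMSO. For Cenpa the values were 12.64 and 12.65 in knockout and 9.82 and 10.47 in wild-type cells given c-di-GMP, and 12.72 and 9.36 in knockout and 10.67 and 10.46 in wild-type cells given DMSO. Bub1b encodes the checkpoint kinase BubR1, Kif11 the motor that separates spindle poles and Cenpa the histone of centromeres, and none of them passed with 8 arrays (adjusted p between 0.0918 and 0.755). In the fit of the other 7 arrays their differences were 2.44 ± 0.16, 2.33 ± 0.18 and 2.51 ± 0.24 with c-di-GMP and 2.17 ± 0.20, 2.11 ± 0.22 and 2.16 ± 0.29 in cells given DMSO (adjusted p between 6.17e-05 and 0.00257). Mad2l1 of the checkpoint, the anaphase ubiquitin enzyme Ube2c, the checkpoint kinase Ttk and the midzone protein Prc1 likewise had their lowest knockout value on the weak array and no call from 8 arrays. They differed by 2.11 ± 0.18, 2.35 ± 0.37, 1.82 ± 0.22 and 1.49 ± 0.18 with c-di-GMP without the weak array (adjusted p between 0.000191 and 0.00256). Ttk was detected on no wild-type array, so that its difference there is a bound of at least 2.62-fold. Ccnb2, Bub1, Cenpe and the polymerase subunit Pola1 were detected on 0 arrays and not tested.

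Replication and mitosis genes were set against each other by their medians. With c-di-GMP, 8 of 17 mitosis genes and 12 of 20 replication genes were higher in knockout cells, with median differences of 2.23 and 1.54, against 5.85% of all genes and a median of 0.10. With DMSO these were 9 of 17 and 13 of 20, with medians of 1.74 and 1.73, against 5.24% and a median of -0.11. Without the weak array the medians were 2.33 for mitosis and 1.55 for replication genes with c-di-GMP, and under DMSO they were 2.11 for mitosis and 1.59 for replication genes. The mitosis genes spanned 1.29 to 2.86 and the replication genes 0.64 to 2.61 with c-di-GMP in that fit, so the ranges overlap over most of their length. Within replication, the helicase ring spanned 0.64 to 2.61 around a median of 2.36, and nucleotide supply 0.74 to 1.59 around a median of 0.86. The gap between the medians was not tested, and probes differ in how much signal a given change of RNA gives.

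The genotype differences of both treatments were set side by side. The c-di-GMP and DMSO comparisons share no array. Across the 40 genes, which are not independent replicates, their differences correlated at 0.40 (Pearson) and 0.39 (Spearman) with 8 arrays, and at 0.84 and 0.85 without the weak array. They lay within 0.5 of each other for 20 and for 33 genes. Without the weak array, Ccne1 lay farthest above the line of equality, with -1.17 under c-di-GMP and 0.10 under DMSO. Ccna2 also lay above it, with 2.02 under c-di-GMP and only its bound of at least 6.15-fold under DMSO.

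**Figure D4:**
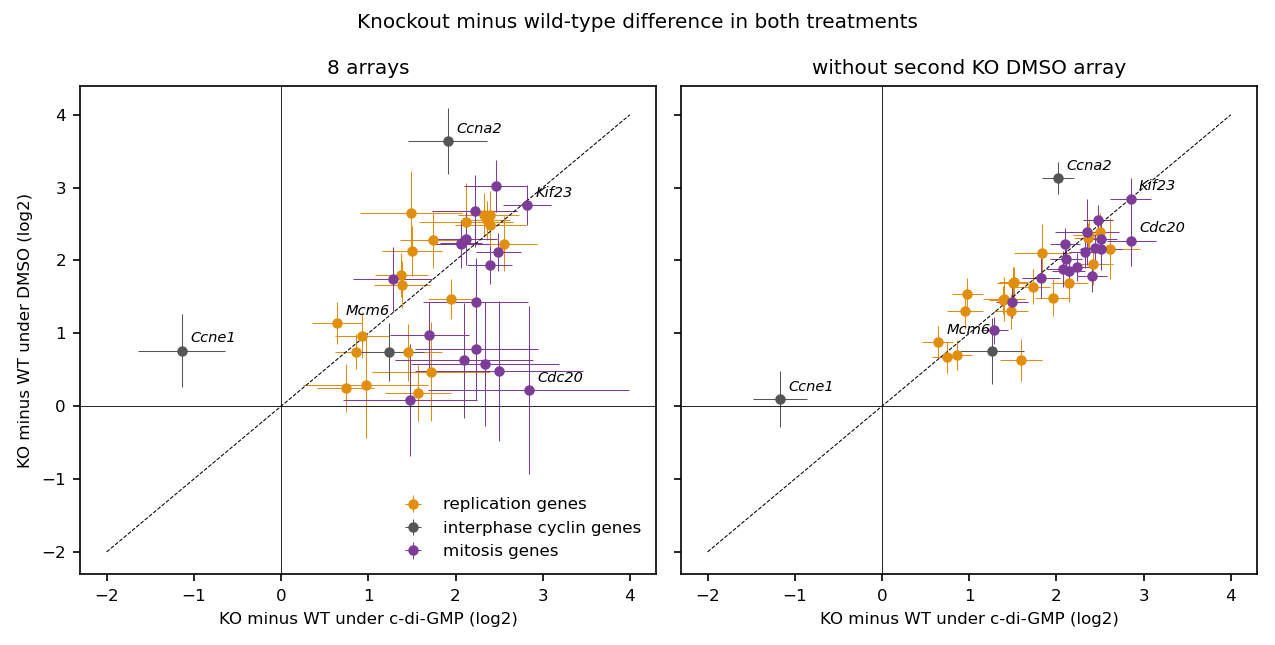
Knockout minus wild-type difference (log2) of each gene with c-di-GMP (x axis) against that with DMSO (y axis), ± SE, with the line of equality dashed, for 8 arrays and for the 7 arrays other than the weak one. Ccna2 and Ttk are drawn at their measured values although not detected in wild-type cells given DMSO. The correlation over the 40 genes was 0.40 with 8 arrays and 0.84 without that array.

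Further probes of the same genes gave mostly the same direction. Of the 61 probes of the set that passed the filter, 21 do not stand for their gene in the tests, from 11 genes. A fit of probes was added after the data were seen. In it, 18 of the 21 were higher in knockout cells with c-di-GMP by sign, 8 of them called. The share of all 13026 probes called higher in that fit is not given here, and in the fit of genes it was 5.85%. The differences of the 21 probes with c-di-GMP ran from -0.41 to 3.12. The 3 other Cdc20 probes differed by 3.12, 3.02 and 3.01 with c-di-GMP (adjusted p = 0.00802, 0.00672 and 0.00427) and by 1.66, 2.90 and 2.14 under DMSO (adjusted p = 0.0752, 0.00933 and 0.0193), so that the missed call of Cdc20 with 8 arrays depends on the probe. With c-di-GMP, the 2 other Birc5 probes differed by 2.81 and 3.04. The 3 other Mcm6 probes differed by 0.65, 1.15 and 0.58, against 0.64 for the probe used. The 3 negative ones were 2 of the 5 Tyms probes, at -0.41 and -0.35, and 1 of the 4 Lig1 probes, at -0.28, detected on 6, 2 and 2 arrays. For these 2 genes the probes disagree in direction. The second Foxm1 probe differed by 2.31 with c-di-GMP and 0.30 under DMSO (adjusted p = 0.207 and 0.864). It read 8.71 and 5.08 on the knockout DMSO arrays and was not detected on the weak one. The second Mcm10 probe differed by 1.20 and 0.37 (adjusted p = 0.317 and 0.731), and that of Rfc4 by 0.72 and 1.56 (adjusted p = 0.355 and 0.0672). The calls of these 3 genes with 8 arrays thus depend on the probe. The DMSO call of Lig1 was missed by its other probes (adjusted p = 0.315, 0.667 and 0.0627). That of Mcm4 was missed by 1 other probe (1.33, adjusted p = 0.0594) and shared by another (1.77, adjusted p = 0.0349). For Rrm2 the second probe gave 1.24 with c-di-GMP and 1.78 under DMSO (adjusted p = 0.0918 and 0.033), so that the treatment in which Rrm2 passed turns on the probe.

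No gene of the set passed the test for a response to c-di-GMP within either genotype. In wild-type cells 0 of 40 genes were called in limma (0.587% of all genes were higher and 0.0105% lower) and 0 had an unadjusted p under 0.05. Without the weak array 0 were called (3.71% and 1.81% of all genes) and 6 had an unadjusted p under 0.05. The median response in wild-type cells, c-di-GMP minus DMSO, was -0.08 for mitosis and -0.02 for replication genes. The genes with the smallest p were Rrm2 at -0.85 ± 0.38, Aurka at -0.55 ± 0.26, Ccne1 at 1.00 ± 0.50, Rfc3 at 0.47 ± 0.31, Ccna2 at 0.56 ± 0.45 and Mcm6 at 0.35 ± 0.29 (adjusted p between 0.832 and 1). Both wild-type c-di-GMP arrays lay below both DMSO arrays for Rrm2 and Aurka and above them for Ccne1, Rfc3, Ccna2 and Mcm6. These genes were picked by their p in this same comparison, which favours such an order, and its share over all genes was not counted. Ccna2 was detected on 1 wild-type array given c-di-GMP and on neither wild-type DMSO array, so that its response is only a bound, at least 1.07-fold. The 95% interval was -1.76 to 0.07 for Rrm2 and -0.19 to 2.20 for Ccne1. Differences of these sizes were therefore not resolved, nor shown to be absent.

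In knockout cells 0 of 40 genes were called (0% of all genes in either direction), with 1 unadjusted p under 0.05, and 0 without the weak array (0% of all genes), with no unadjusted p under 0.05. The smallest p with 8 arrays belonged to Ccna2 at -1.17 ± 0.45, Prim1 at -0.84 ± 0.38, Kif11 at 1.43 ± 0.71, Bub1b at 1.69 ± 0.85, Plk1 at -0.89 ± 0.49 and Ccne1 at -0.89 ± 0.50 (adjusted p = 0.529 for each). All 6 moved once the weak array was left out, to -0.50 ± 0.22, -0.59 ± 0.40, 0.20 ± 0.22, 0.20 ± 0.20, -0.10 ± 0.19 and -0.24 ± 0.38. Over all 40 genes the knockout response then ran from -0.59 for Prim1 to 0.22 for Top2a, around a median of 0.05. With the weak array as the only knockout DMSO array, 14 genes were called higher and 13 lower with c-di-GMP, where 34.3% of all genes were higher and 23.4% lower.

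The responses of the genotypes did not differ in any of the 40 genes by the test of the difference itself (0% of all genes were called higher and 0.0419% lower, with 3 of the 40 at an unadjusted p under 0.05). Without the weak array the count was again 0 of 40 (0.021% and 0.482% of all genes), with the same number at an unadjusted p under 0.05. The smallest p belonged to Ccna2, with a knockout minus wild-type response of -1.73 ± 0.63, then Ccne1 at -1.90 ± 0.71, Rrm2 at 1.40 ± 0.54, Cdc20 at 2.62 ± 1.63, Cenpa at 2.02 ± 1.35 and Bub1b at 1.76 ± 1.20 (adjusted p = 0.71 for each). The Ccna2 value rests on wild-type DMSO signals that are not above background. In Ccna2 both knockout c-di-GMP arrays lay below both knockout DMSO arrays, while both wild-type c-di-GMP arrays lay above both wild-type DMSO arrays. Its selection by p in this comparison favours such an order. Without the weak array its difference of responses was -1.11 ± 0.29 (adjusted p = 0.193), that of Ccne1 -1.27 ± 0.49 and that of Rrm2 0.95 ± 0.38 (adjusted p = 0.403 and 0.412). Cdc20, Cenpa and Bub1b stood then at 0.59 ± 0.45, 0.35 ± 0.38 and 0.27 ± 0.26. When the weak array alone stood for knockout DMSO cells, 13 genes were called higher and 9 lower, where 29.8% of all genes were higher and 18.9% lower.

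**Figure D5:**
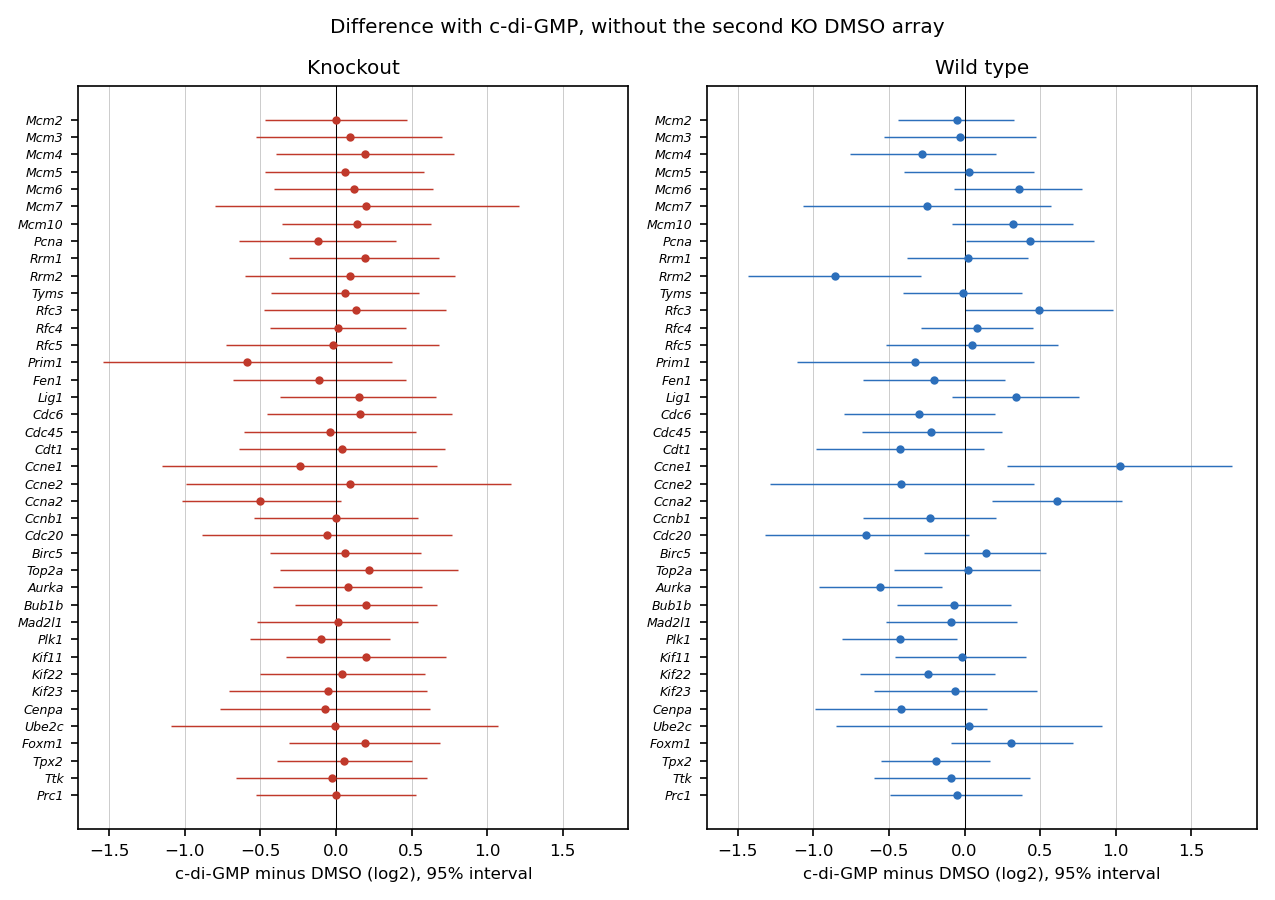
Difference between c-di-GMP and DMSO (log2, x axis) of the 40 genes in knockout cells (left) and wild-type cells (right) without the second knockout DMSO array, points with 95% intervals from limma. Knockout responses lie between -0.59 and 0.22 and wild-type responses between -0.86 and 1.03.

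Other genes of the same pathways, from lists drawn up beside the set, were called higher in knockout cells in part and never lower. Of 40 further replication genes 36 were tested, and 11 were higher in knockout cells given c-di-GMP and 15 under DMSO, with 0 lower in either (31 and 28 without the weak array, 0 lower). Of all genes 5.85% and 5.24% were higher with 8 arrays, and 23.5% and 13.7% without the weak array. Their median difference was 1.38 given c-di-GMP and 0.99 given DMSO, and 35 and 29 of the 36 were positive. Over the 31 detected on at least 2 wild-type arrays, 10 and 15 were higher, with medians of 1.45 and 1.22. Of all 8544 genes detected so, 5.56% and 5.01% were higher, with medians of 0.05 and -0.19. Those with the smallest p in either treatment included Pold2, a subunit of polymerase δ, at 2.18 ± 0.25 and 1.93 ± 0.25, the thymidine kinase gene Tk1 at 2.13 ± 0.27 and 2.00 ± 0.27, the polymerase α subunit gene Pola2 at 1.51 ± 0.24 and 1.56 ± 0.24, and the kinase gene Cdc7, which fires origins, at 2.17 ± 0.41 and 2.44 ± 0.41. Pold2 read 9.95 and 10.17 in knockout and 7.85 and 7.91 in wild-type cells given c-di-GMP, and 9.97 and 9.92 in knockout and 7.86 and 8.17 in wild-type cells given DMSO. Of 54 further mitosis genes 42 were tested, and 22 were higher in each treatment with 0 lower (38 and 36 without the weak array, 0 lower). Their medians were 1.75 given c-di-GMP and 1.50 given DMSO, and 41 and 39 of the 42 were positive. Over the 34 detected on at least 2 wild-type arrays, 21 and 20 were higher, with medians of 1.78 and 1.60, beside the same 5.56% and 5.01%. The condensin subunit gene Ncapd2 differed by 2.52 ± 0.24 and 2.04 ± 0.24, the passenger complex gene Incenp by 2.38 ± 0.25 and 2.06 ± 0.25, and Cdca3 by 2.92 ± 0.35 and 2.83 ± 0.35. For the response to c-di-GMP in wild-type cells, 0 of the 36 and 0 of the 42 were called, where 0.587% of all genes were higher and 0.0105% lower.

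Of 32 on a list of regulators 24 were tested, with 3 higher and 3 lower in knockout cells given c-di-GMP and 3 higher and 2 lower under DMSO (10 and 5, and 6 and 4, without the weak array). These are 12.5% higher and 12.5% lower with c-di-GMP and 12.5% and 8.33% under DMSO, against 5.85% and 8.14%, and 5.24% and 7.48%, of all genes. Without the weak array they are 41.7% and 20.8%, and 25% and 16.7%, against 23.5% and 20.4%, and 13.7% and 13.9%, so that the share of regulators called lower is near that of all genes. The cell cycle inhibitor genes Cdkn2a and Cdkn2b, which encode p16, p19Arf and p15, were detected on 4 wild-type arrays each and on 0 knockout arrays. Cdkn2a read 4.85 and 5.02 in knockout and 11.28 and 10.57 in wild-type cells given c-di-GMP, and 4.75 and 5.53 in knockout and 11.12 and 10.68 in wild-type cells given DMSO. It was at least 46.1-fold lower in knockout cells given c-di-GMP and at least 21.9-fold lower with DMSO (adjusted p = 0.000223 and 0.000369). With c-di-GMP, Cdkn2b stood at 4.71 and 4.68 in knockout and 11.55 and 11.53 in wild-type cells, and with DMSO at 4.72 and 5.00 in knockout and 11.60 and 11.73 in wild-type cells. The bounds for Cdkn2b were 70.4-fold and 37.4-fold (adjusted p = 1.83e-05 and 4.53e-05). Their part in the difference of the set was not tested. Cdkn1a, which encodes p21, differed by -1.05 ± 0.27 under c-di-GMP and -0.85 ± 0.27 under DMSO (adjusted p = 0.0497 and 0.0901). Mybl2, which encodes B-Myb, differed by 1.97 ± 0.41 under c-di-GMP and 1.00 ± 0.41 under DMSO (adjusted p = 0.0229 and 0.157). E2f2 was detected on no wild-type array and was at least 2.96-fold higher in knockout cells with c-di-GMP. E2f1 differed by 0.37 ± 0.27 under c-di-GMP and 0.45 ± 0.27 under DMSO (adjusted p = 0.447 and 0.292), Rb1 by -0.17 ± 0.26 under c-di-GMP and -0.21 ± 0.26 under DMSO (adjusted p = 0.762 and 0.61) and Ccnd1 by 0.68 ± 0.28 under c-di-GMP and 0.74 ± 0.28 under DMSO (adjusted p = 0.169 and 0.13), and these 3 did not pass.

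Some leukocyte markers also differed with genotype. Of 8 leukocyte markers 7 were tested, and 3, Lyz2, Adgre1 and Laptm5, were lower in knockout cells in both treatments. With c-di-GMP they were lower by at least 42.4-fold, 14.7-fold and 10.6-fold. The summed normalized level of the 7 was 245 to 463 on the knockout arrays and 3085 to 4164 on the wild-type arrays. Cd14 differed by 1.22 ± 0.54 and 0.02 ± 0.54 (adjusted p = 0.203 and 0.984), and without the weak array it was higher in knockout cells in both treatments (1.26 ± 0.16 and 0.94 ± 0.20, adjusted p = 0.000997 and 0.0139). Without that array, Csf1r and Tyrobp were also lower with c-di-GMP (adjusted p = 0.0482 and 0.0338). Ptprc, the pan-leukocyte marker, was detected on no array. For 10 of 11 fibroblast markers the sum was 29385 to 53814 on knockout and 33328 to 40792 on wild-type arrays (29385 to 31882 in knockout without the weak array). Within it, Pdgfra and Thy1 were higher and Col1a1 lower in knockout cells in both treatments. Of 6 epithelial markers 1 was tested (summed level 27 to 68 in knockout and 34 to 78 in wild-type cells), with Krt8, Krt18, Krt19 and Cldn4 detected on no array. Of 6 endothelial markers 2 were tested (91 to 267 in knockout and 71 to 102 in wild-type cells), with Cdh5 and Emcn detected on no array. None of these 3 tested genes, Cdh1, Kdr and Tek, passed in either treatment, with or without the weak array (adjusted p between 0.111 and 0.846 with c-di-GMP and between 0.259 and 0.86 under DMSO). The part of these cell markers in the difference of the replication and mitosis genes was not tested, and in bulk RNA a change in the share of dividing cells and a change in mRNA per cell cannot be told apart.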

How the data were processed

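Total RNA of 8 MEF samples in 4 groups of 2, named by the sample titles, was measured on single-colour arrays. The main input was the probe intensity that the authors deposited before normalization. Each intensity has a detection p-value in the same file, per the file headers. GenomeStudio 2010.2 is the software named, per the submitters' processing notes, and no step on background is stated. A deposited table of normalized intensity served as an alternative. All per-sample columns were mapped to a sample and 0 were left unused.

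The function neqc (limma 3.58.1, R 4.3.3) corrected the background by normexp from the detection p-values with an offset of 16, then quantile normalized and took log2. The log2 values and differences were computed here from the deposited intensity. Gene names were updated through RefSeq's mouse table (GRCm38.p6): 20733 probes had a current symbol, 3872 a synonym and 122 a gene number, while 939 kept their name and 31 stayed unnamed. A probe was kept where 2 or more arrays had a detection p under 0.05 (13026 probes), and each of 9541 genes was represented by its brightest kept probe, by the mean of the 8 arrays. The limma model had 1 mean per group, all 8 arrays and no other term (4 residual and 2.77 prior degrees of freedom). All tests were two-sided, and p-values were adjusted by Benjamini-Hochberg over the genes tested, with 0.05 as threshold. The number of arrays limits the precision. The scripts were tested on simulated data. A gene not detected on any array of a group has a bound there, taken against the lowest detected signal of each array.

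The members and the gene lists were chosen with earlier results of these data known. All 49 members could be named, with values per array for those called in a comparison, or the 6 with the smallest p where fewer were called, and for Mcm2 to Mcm7, Pcna, Ccne1, Ccna2, Ccnb1 and Top2a. Of other pathway genes at most 6 with the smallest p per list and comparison were named, and of regulators also E2f1, Mybl2, Rb1, Ccnd1 and Cdkn1a. Alternatives were median scaling, the authors' normalized table, the detection filter, the mean over probes, a replicate block, array weights, only the 4 arrays of a comparison and leaving out each array.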

Additional observations from a re-analysis of the deposited data

How the results depend on the processing

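With c-di-GMP, 21 genes of the set were higher in knockout cells, 0 with median scaling, 38 with median scaling without the weak array, 39 with array weights and 39 from the 4 arrays of the comparison, the last 2 with 1 lower. Of all genes, 5.85% were called higher with c-di-GMP and 8 arrays of equal weight, and 0.241% with median scaling. The share was 22.6% with array weights and 22.2% from the 4 arrays, where 19.5% and 19.1% were lower. It also rose with median scaling without the weak array, so that calls moved over all genes and not in the set alone. The replication median, 1.54, was 1.89 and 1.88 with median scaling, with and without the weak array, and 1.23 in the authors' normalized table, where the mitosis median was 1.81. With DMSO, 23 were higher, 0 with median scaling, 35 with it without the weak array, 6 with array weights and 0 from the 4 arrays alone. The share of all genes called higher with DMSO moved likewise, from 5.24% to 0.0524% with median scaling. It was 0.797% with array weights and 0.168% from the 4 arrays, and rose with median scaling without the weak array. The replication median was 0.62 with median scaling and 1.39 in the authors' table, and the mitosis median 0.95 with median scaling, 2.28 with it without the weak array and 1.20 with no detection filter. Median scaling left the median of all genes at 0.29 with c-di-GMP, -0.65 with DMSO and 0.93 in the knockout response. The replication and mitosis medians were then 1.33 and 1.32 in the knockout response, against -0.16 and 0.15, and 1.35 and 1.52 in the difference of responses, against -0.14 and 0.46 (0.10 for replication without the weak array). Mcm6 with DMSO reversed to -0.20 under median scaling. The mean over detected probes gave a mitosis median of 0.64 in the knockout response. Leaving out 1 array at a time, genes higher ranged from 5 to 39 with c-di-GMP (0 to 1 lower) and from 6 to 36 under DMSO (0 to 7 lower), from 0 to 14 in the knockout response (0 to 13 lower) and from 0 to 13 in the difference of responses (0 to 9 lower). The replication medians ranged from 1.42 to 1.66, 1.59 to 2.02, -0.40 to 0.07 and -0.45 to 0.06 in these 4 comparisons and the mitosis medians from 2.18 to 2.33, 1.74 to 2.11, 0.01 to 0.30 and 0.22 to 0.56. Over all genes, calls with c-di-GMP (558 higher, 777 lower) were 23 and 185 with median scaling and 2242 and 1942 without the weak array. With DMSO (500 and 714) they were 5 and 154, and 1303 and 1325. Same-numbered arrays correlated at -0.03 to 0.06 in their deviations. This shows no large shared replicate effect but cannot tell whether samples were paired. With a replicate block, 19 genes were higher with c-di-GMP and 21 under DMSO (4.34% and 3.91% of all genes), and 0 were called in the responses. The all-gene calls in the wild-type response were then 12 higher, against 56 without the block. Of the 40 genes, 39 were positive with c-di-GMP and 40 with DMSO; with DMSO this became 27 with median scaling and 30 without the first knockout DMSO array. For the genes called with 8 arrays, or the 6 with the smallest p where none was called, there were 1048 values under these alternatives. Of these, 815 kept their call or lack of it, 220 lost a call, 12 gained one and 1 called difference reversed. Changes of sign in genes without a call are not counted there. In the knockout response, 21 of the 40 genes were positive with 8 arrays and 40 with median scaling. The cause of these shifts was not tested. Signal over background limits Ttk, Ccna2, Ube2c, Bub1b, Kif11, Prim1 and Mcm3, which read near it in wild-type cells.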
